A study of Mus musculus with 6 samples.

Results

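The CC chemokines are small secreted proteins that bind receptors on leukocytes and draw these cells along a gradient. The name refers to 2 adjacent cysteines near the start of the mature protein. In connective tissue, fibroblasts are among the cells that make them when they sense bacteria, and several of their genes are known targets of NF-kB, the transcription factor switched on by lipopolysaccharide (LPS) through Toll-like receptor 4. The 9 genes described here were taken by symbol: Ccl2, Ccl3, Ccl4, Ccl5, Ccl7, Ccl8, Ccl9, Ccl11 and Ccl20. All probe sets with 1 of these symbols alone were used, which gave 10 probe sets, 2 of them for Ccl9. All 9 genes passed the filter on dim signals, Ccl3 through its LPS arrays alone, and belonged to the 12918 genes tested, out of 18193 with a probe set of a single symbol.

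Signals were measured on Affymetrix Mouse Genome 430 2.0 arrays in mouse embryo fibroblasts (MEF), cells grown from embryos of the ICR strain at embryonic day 15.5. The Control group stayed at 37 °C. The LPS group received 1 μg/ml of LPS from E. coli 0127:B8 for 4 h, and the HS+LPS group spent 1 h at 42 °C before the same 4 h of LPS. There were 2 cultures, each from 1 embryo, and each gave 1 array in each of the 3 groups, 6 arrays in all. A group given heat shock without LPS was not analysed here, so a difference between HS+LPS and LPS holds everything the heat shock did.

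Array medians lay between 11.9 and 14.4 intensity units and the highest signals between 6931 and 8434. Each array carries 27 probe sets for genes of Bacillus subtilis, which mouse RNA should leave dark; the brightest of them set the noise level, 6.0 to 7.67. Hspa1a, the heat-inducible Hsp70, read 54.8 to 68.1 on the 4 arrays without heat shock and 4939.7 to 5029 on the 2 with it. All 10 fibroblast markers were above noise on every array. They too differed between the cultures: in Control all but Pdgfrb and S100a4 read higher in culture 2. In cultures 1 and 2 Lum read 119 and 1699, Dcn 333 and 1862, and Pdgfra 302 and 1036. Of 10 macrophage markers 4 were above noise on all arrays (Csf1r, Adgre1, Cd68 and Lyz2) and 3 on none (Itgam, Fcgr1 and Aif1). The summed macrophage signal was 232 to 431 in Control, 213 to 396 in LPS and 227 to 354 in HS+LPS, against 26121 to 35935 for the fibroblast list in Control. The macrophage sums of the 3 groups overlapped, but the cultures differed: culture 1 had the higher sum in every group. In Control, LPS and HS+LPS the sum was 431, 396 and 354 in culture 1, and 232, 213 and 227 in culture 2. Lyz2 read 220, 193 and 169 in culture 1 and 110, 89.8 and 97.5 in culture 2. The part of these cells in the chemokine signals, and in the differences between cultures, was not tested. Signals come from whole cultures, so more cells making a transcript and more transcript per cell cannot be told apart.

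Of the 9 members, 8 lie on mouse chromosome 11 in the RefSeq annotation of GRCm38.p6, in 2 runs with 26 protein-coding genes between them. Ccl2, Ccl7, Ccl11 and Ccl8 form the first run, with Ccl12 between the last pair. Ccl5, Ccl9, Ccl3 and Ccl4 form the other, with Ccl6 between Ccl9 and Ccl3. Ccl20 lies alone on chromosome 1. RefSeq promoter windows of 300 bases, from 250 before the start to 50 after it, were at hand for 4 of the 9 members: Ccl3, Ccl8, Ccl9 and Ccl20. The other members are Ccl2, Ccl4, Ccl5, Ccl7 and Ccl11. The 250 bases before the start are shown for these 4 because they include members with large (Ccl3, Ccl9, Ccl20) and with small (Ccl8) responses to LPS. They are written 5′ to 3′ on the strand of the gene, in build GRCm38.p6, with matches to the NF-kB consensus on either strand in capitals. Ccl20 is at chr1:83116516-83116765 on the plus strand, Ccl9 at chr11:83578637-83578886 on the minus strand, Ccl3 at chr11:83649379-83649628 on the minus strand and Ccl8 at chr11:82114935-82115184 on the plus strand.
Ccl20: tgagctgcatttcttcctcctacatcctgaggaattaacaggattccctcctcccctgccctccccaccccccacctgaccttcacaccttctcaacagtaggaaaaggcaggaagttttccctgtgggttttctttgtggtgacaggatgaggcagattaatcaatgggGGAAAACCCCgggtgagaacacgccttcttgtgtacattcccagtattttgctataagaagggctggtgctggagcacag
Ccl9: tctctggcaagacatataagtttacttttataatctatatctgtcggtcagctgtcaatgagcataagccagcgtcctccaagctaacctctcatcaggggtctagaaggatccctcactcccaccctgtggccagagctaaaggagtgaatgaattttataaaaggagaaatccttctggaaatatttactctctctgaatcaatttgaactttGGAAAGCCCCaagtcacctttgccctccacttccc
Ccl3: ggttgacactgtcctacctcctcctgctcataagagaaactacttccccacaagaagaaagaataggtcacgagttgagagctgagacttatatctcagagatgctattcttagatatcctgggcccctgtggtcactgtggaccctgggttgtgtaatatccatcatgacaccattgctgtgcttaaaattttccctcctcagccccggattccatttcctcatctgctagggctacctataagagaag
Ccl8: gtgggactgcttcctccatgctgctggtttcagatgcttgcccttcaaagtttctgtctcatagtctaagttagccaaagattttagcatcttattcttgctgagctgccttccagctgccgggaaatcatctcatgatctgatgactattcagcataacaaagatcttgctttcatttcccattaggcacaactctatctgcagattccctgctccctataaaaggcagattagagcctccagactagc

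The NF-kB consensus was matched in 2 of these 4 windows. The match lay 80 to 71 bases before the start of Ccl20 and 35 to 26 bases before that of Ccl9; of all 32851 RefSeq windows of this length, 8.46% held a match. The pattern searched for AP-1, TGANTCA, allows any base at N and is a loose form of the motif. It matched once, as TGAATCA, 53 to 47 bases before the start of Ccl9 (7.81% of all windows), and overlapped no other match. The TATA box TATAAA was found 32 bases before the start of Ccl8 and at 224, 94 and 92 bases before that of Ccl9, the last pair overlapping on opposite strands (13.6% of all windows). Neither the interferon-stimulated response element (3.44%) nor the heat shock element pair GAANNTTC (7.86%) occurred in the 4 windows. The heat shock pair was searched in this order of its parts alone. The opposite order was not searched, and it can be read in the Ccl9 sequence above. The absence of GAANNTTC therefore does not mean that these windows lack heat shock element pairs. Both strands were searched for every motif, and a match describes letters in a window, not binding.

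LPS against Control asks which CC chemokines the stimulus raised. Signals of all 9 genes were higher with LPS than in Control in both cultures, as were those of 24.7% of all genes tested. In the limma fit of the 3 groups 5 of the 9 rose (Ccl2, Ccl3, Ccl5, Ccl7 and Ccl9), where 0.147% of all genes were called, all of them higher. Ccl3 had passed the filter through its LPS arrays alone, so it had to differ and adds no separate support to the counts here. With a filter at the 60th percentile, which left Ccl3 out, 4 members and 13 of all genes rose. With the culture added as a block, which removes the constant difference between the 2 embryos, all 9 rose, Ccl8 just inside the threshold, where 2.06% of all genes rose. The median log2 difference of the 9 was 1.71, against -0.05 over all genes tested. LPS and Control arrays did not overlap for 7 of the 9 (13.1% of all genes); the exceptions were Ccl8 and Ccl11. The count of 5 without the block depends on how many arrays enter the fit. With only the LPS and Control arrays, 0 members and 0 of all genes were called. The differences of the 5 kept their sign with any 1 array left out. They ran from 1.53 to 1.75 for Ccl2, 3.96 to 4.42 for Ccl3 and 5.54 to 6.70 for Ccl5. For Ccl7 they ran from 1.55 to 1.59, and for Ccl9 from 2.77 to 3.03.

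HS+LPS against LPS asks which of them a preceding heat shock lowered. Signals of all 9 genes were lower after heat shock in both cultures, as were those of 40.7% of all genes. The limma fit called 5 lower, the same 5 genes that rose with LPS, and 0.828% of all genes. Ccl3 had to differ here too and adds no separate support to these counts. With the filter at the 60th percentile, which left it out, 4 members and 106 of all genes fell. With the block all 9 fell, where 12.6% of all genes fell. The median log2 difference of the 9 was -1.98, against -0.05 over all genes. The groups did not overlap for 8 of the 9, all but Ccl11 (28.8% of all genes were lower in this way). With any 1 array left out, the differences of the 5 kept their sign. They ran from -1.39 to -1.17 for Ccl2, -4.85 to -4.78 for Ccl3 and -5.65 to -4.70 for Ccl5. For Ccl7 they ran from -2.05 to -1.91, and for Ccl9 from -3.33 to -3.08. This comparison shares its LPS arrays with the one above.

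**Figure D1:**
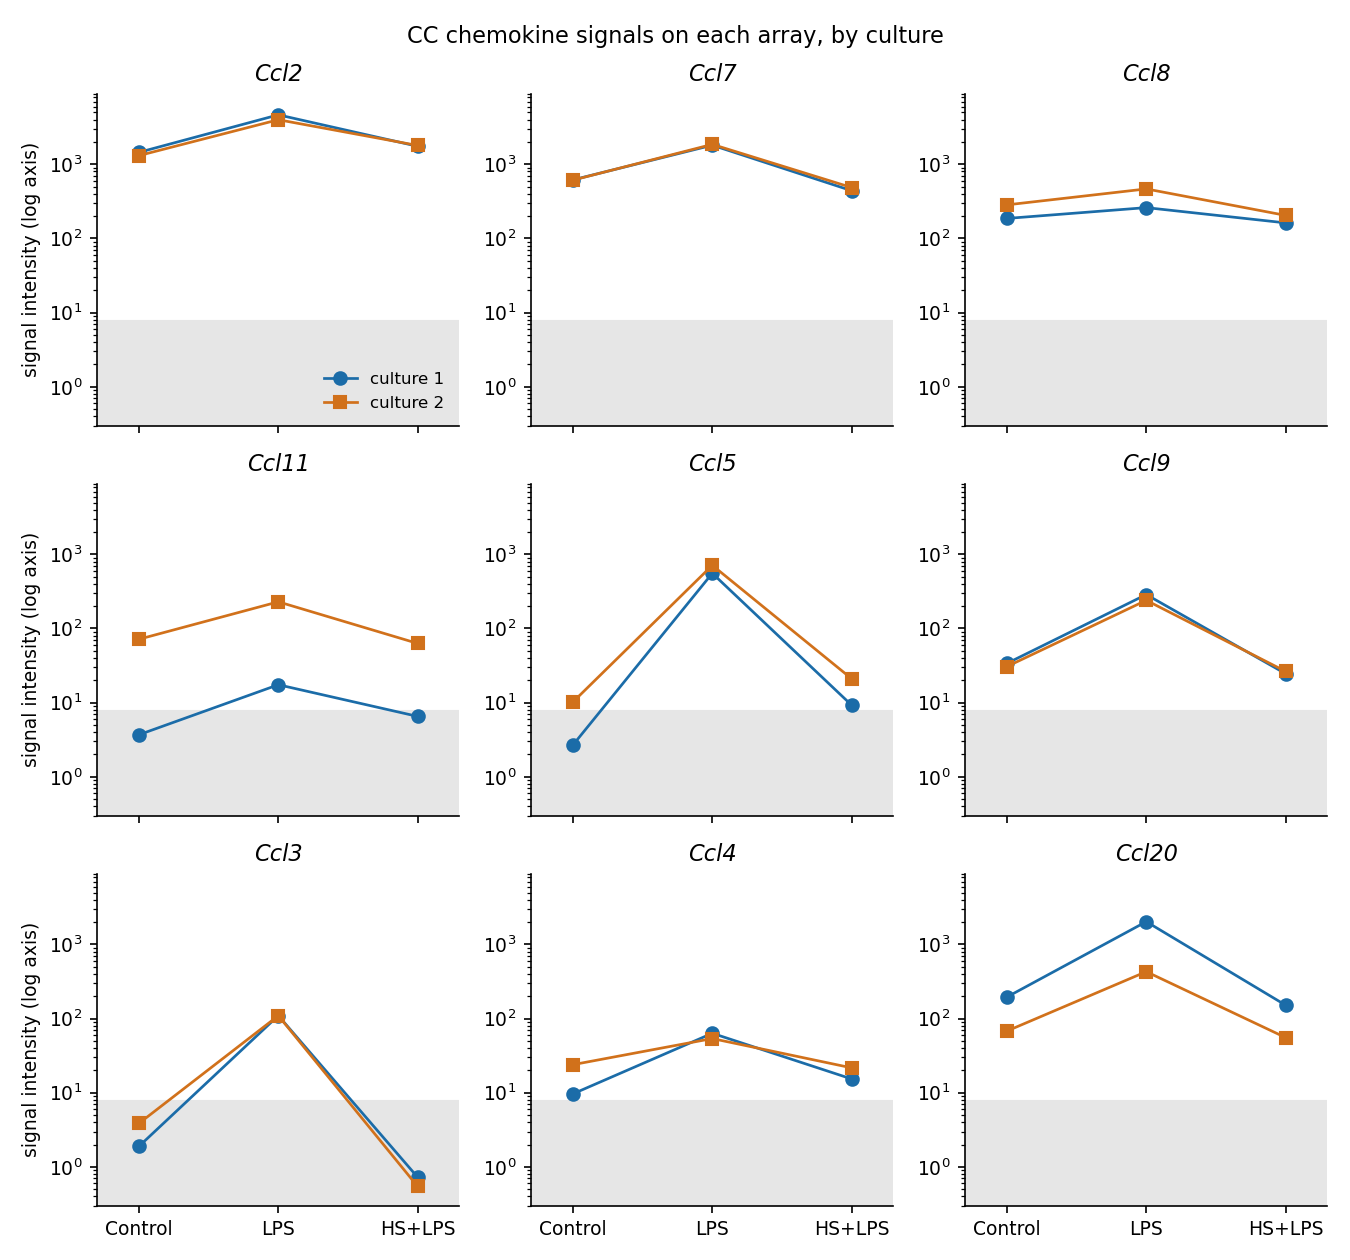
Signal intensity (log axis) of each CC chemokine on the 6 arrays, with a line for each culture; the grey band lies under the highest noise level, 7.67. Every line peaks in LPS; Ccl3 is inside the band in Control and HS+LPS, and the 2 cultures run far apart for Ccl11 and Ccl20.

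Ccl2 and Ccl7 are monocyte chemoattractants that act on the receptor Ccr2, and both were already well above noise without stimulus. Ccl2 read 1449 and 1310 in Control (cultures 1 and 2), 4642 and 3987 with LPS, and 1747 and 1793 with HS+LPS. The cultures lay close together in each group and the LPS arrays stood above all others. Ccl2 rose 3.12-fold with LPS (log2 difference 1.64, SE 0.12, limma adjusted p = 0.0145) and fell with heat shock (-1.28, SE 0.12, adjusted p = 0.0153). Its LPS signals are within the brightest part of the scale, where it was not tested whether signal still rises in proportion, so its folds may be understated. Ccl7 read 616 and 611 in Control, 1808 and 1855 with LPS, and 440.2 and 486 with HS+LPS. The 3 groups were fully separate, with HS+LPS the lowest. Ccl7 rose 2.97-fold with LPS (log2 difference 1.57, SE 0.11, adjusted p = 0.0145) and fell 3.94-fold with heat shock (-1.98, SE 0.11, adjusted p = 0.00273).

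Ccl8, a member of the monocyte chemoattractant group that in mice acts on Ccr8, had the smallest fitted differences of the 9 with LPS and after heat shock. It read 186 and 284 in Control, 260.4 and 465 with LPS, and 162 and 205 with HS+LPS. Culture 2 was the higher in every group, and LPS in culture 1 lay under Control in culture 2. The log2 difference was 0.59 for LPS against Control (95% interval -0.22 to 1.41, adjusted p = 0.999; with the block 0.31 to 0.88, adjusted p = 0.0447). The blocked rise did not pass after quantile normalization (adjusted p = 0.0543) or when every probe set was tested on its own (adjusted p = 0.0515). Without the block it was 0.18 without LPS 2, 0.29 without Control 1, 0.89 without Control 2 and 1.01 without LPS 1. For HS+LPS against LPS it was -0.92 (adjusted p = 0.246, with the block 0.00179), and unblocked -0.51 without LPS 2 and -1.34 without LPS 1.

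Ccl11, eotaxin, attracts eosinophils through Ccr3. It read 3.70 and 71.7 in Control, 17.4 and 229 with LPS, and 6.53 and 62.9 with HS+LPS. In culture 1 it was above noise with LPS alone, so the culture 1 values of the other groups are bounds. The signal in culture 2 was 13.1 times that in culture 1 with LPS, and at least 9.53 times in Control and 8.20 times with HS+LPS, set against the noise level. Within each culture LPS was the highest array: with the pseudocount, the log2 difference to Control was 1.56 and 1.63 in cultures 1 and 2, and that of HS+LPS to LPS was -1.07 and -1.81. Without the block the 95% interval of the rise ran from -2.39 to 5.58 (adjusted p = 0.999), and with it from 1.02 to 2.17 (adjusted p = 0.0117). The fall likewise passed with the block and not without it (-1.44, adjusted p = 0.721, with the block 0.00585). Because the cultures lie so far apart, leaving out 1 array turned the unblocked rise to -0.11 (without Control 1) or -0.15 (without LPS 2) and the unblocked fall to 0.30 (without LPS 2).

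Ccl5 is a chemokine that attracts T cells and monocytes. It read 2.69 and 10.2 in Control, 555 and 712 with LPS, and 9.26 and 21.0 with HS+LPS. Control in culture 1 was under the noise level and in culture 2 above it, and the LPS signal was 60 and 33.8 times the HS+LPS signal in cultures 1 and 2. The log2 difference was 6.12 for LPS against Control (SE 0.48, adjusted p = 0.017) and -5.17 for HS+LPS against LPS (SE 0.48, adjusted p = 0.0158). Ccl9, a macrophage inflammatory protein found in rodents that acts on Ccr1, read 33.9 and 30.7 in Control, 287 and 239.9 with LPS, and 24.6 and 26.4 with HS+LPS. The groups were separate and the cultures close. It rose 7.46-fold (log2 difference 2.90, SE 0.18, adjusted p = 0.0145) and fell 9.21-fold (-3.20, SE 0.18, adjusted p = 0.003). The second, dimmer Ccl9 probe set read 14.5 and 22.3, 207 and 184, and 19.8 and 17.6 in the same order, with log2 differences of 3.21 and -3.17 that also passed when every probe set was tested on its own (adjusted p = 0.02 and 0.00881).

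Ccl3 and Ccl4, macrophage inflammatory proteins 1 alpha and 1 beta, are neighbours in the genome. Ccl3 read 1.90 and 3.87 in Control, 109.6 and 109.4 with LPS, and 0.725 and 0.545 with HS+LPS. It was above noise in LPS alone, at nearly the same signal in both cultures, and passed the filter on dim signals through those arrays alone. It therefore had to differ, and its p and its place among the 5 called genes are no separate support. With a filter at the 60th percentile Ccl3 was not tested, and 4 members were called in each of the first 2 comparisons. Set against the noise level, Ccl3 was at least 15.8-fold higher with LPS than in Control (limma adjusted p = 0.0145) and at least 15.0-fold lower after heat shock (adjusted p = 0.00412). Ccl4 read 9.66 and 23.9 in Control, 63.3 and 53.8 with LPS, and 15.3 and 21.7 with HS+LPS. It was above noise on all 6 arrays, and the LPS arrays were the brightest. Its rise was larger in culture 1 (log2 difference 2.36) than in culture 2 (1.07); the fitted 1.71 (SE 0.40) had an adjusted p of 0.452 in limma and passed with the block (0.0247), and so did the fall of 1.51 on the log2 scale (0.143, with the block 0.0126).

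Ccl20 attracts Th17 cells, B cells and immature dendritic cells through its receptor Ccr6. It read 195 and 67.9 in Control, 2027 and 429 with LPS, and 152 and 55.5 with HS+LPS. In every group culture 1 was the higher, by 2.88, 4.72 and 2.74 times, the opposite of Ccl11. Its log2 rise was 3.35 in culture 1 and 2.60 in culture 2, and its fall -3.71 and -2.88. Both passed with the block and not without it (rise 2.98, SE 0.88, adjusted p = 0.747, with the block 6.6e-05; fall -3.29, SE 0.88, adjusted p = 0.152, with the block 1.67e-05).

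**Figure D2:**
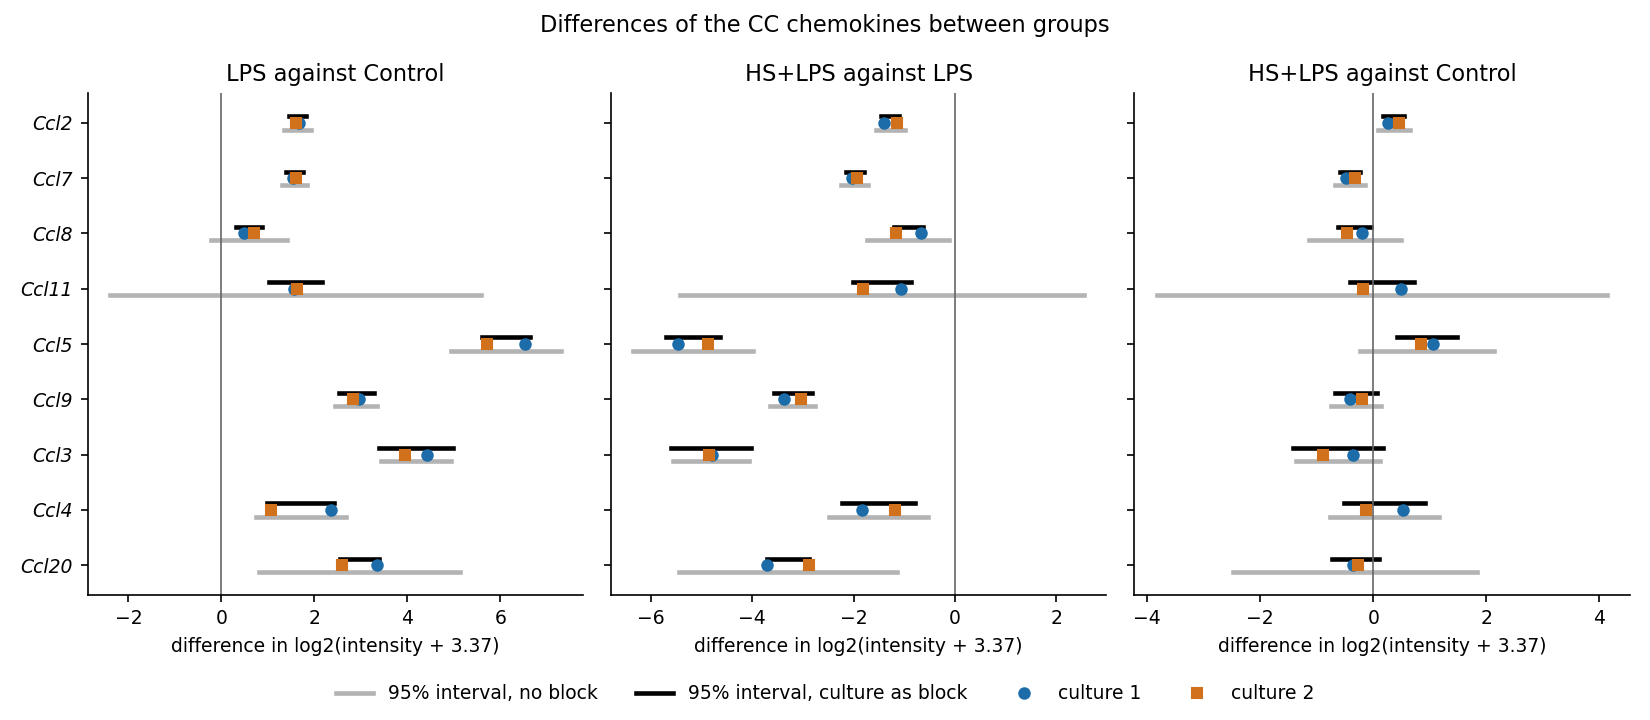
Differences in log2(intensity + 3.37) of the 9 genes for the 3 comparisons, with a point for each culture and 95% intervals of the fitted difference without the block (grey) and with the culture as a block (black). All points lie to the right of 0 for LPS against Control and to the left for HS+LPS against LPS; the grey intervals are widest for Ccl11 and Ccl20, whose cultures differ most.

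**Figure D3:**
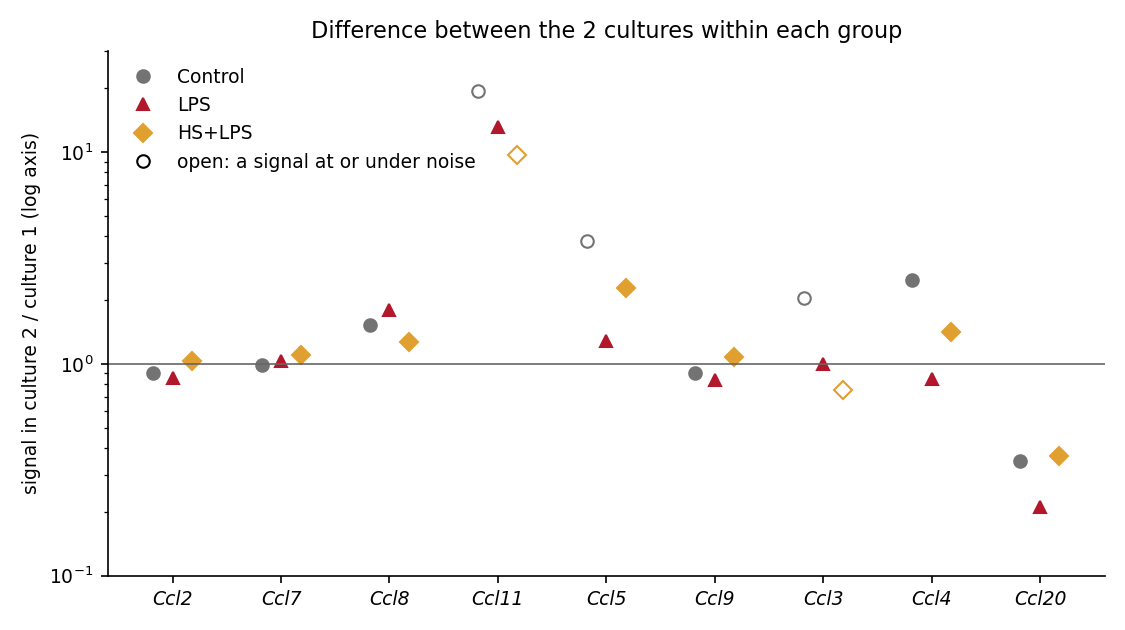
Ratio of the signal in culture 2 to that in culture 1 (log axis) for each gene in the 3 groups; open symbols have a signal at or under noise, so those ratios are not measured. With LPS, where both cultures were measured, Ccl11 lies at 13.1; Ccl20 lies under 1 in all groups, while Ccl2, Ccl7 and Ccl9 lie near 1.

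The profile of Ccl11 over the 6 arrays was most like those of Lum and Igfbp5, which encode a matrix proteoglycan of fibroblasts and a binding protein of insulin-like growth factors. Lum read 119 to 188 in culture 1 and 1578 to 1820.5 in culture 2. Likeness was the root mean square distance between gene-centred log2 signals over the 6 arrays; it was 0.61 for both, where the spread of Ccl11 itself was 1.77. For the other members, the 2 nearest genes were Maml2 and Relb for Ccl2 (0.14 and 0.16), Igtp and Cfb for Ccl7 (0.12 and 0.13), and Tmem131l and Mob3b for Ccl8 (0.07 and 0.11). Ccl9 was nearest to Tnf and Icam1 (0.25 for both), and Ccl3 to Nos2 and Acod1 (0.36 and 0.46). Ccl4 was nearest to Ccrl2 and Pik3r5 (0.19 and 0.21), Ccl20 to Rnd1 and Ifit1 (0.48 and 0.65), and Ccl5 to Gbp6 and Acod1 (0.83 and 0.86). Within the family, Ccl2 and Ccl7 lay closest together by this distance (0.36) and Ccl11 and Ccl20 farthest apart (2.60). The distance depends on the size of the responses as well as their pattern. By Pearson correlation over the same arrays, Ccl3 and Ccl9 ranked first (0.994), with Ccl2 and Ccl7 at 0.912.

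HS+LPS against Control asks how far the chemokines came back to the level of unstimulated cells. In the limma fit 0 of the 9 passed (0.178% of all genes were called); at an unadjusted p under 0.05 there were 2, Ccl2 higher and Ccl7 lower (4.48% and 11.7% of all genes). With the block 2 were higher, Ccl2 and Ccl5, where 5.09% of all genes were higher. Ccl7 was the 1 member lower with the block, a share near that of all genes (12.1%). Over the 9 members the median log2 difference was -0.30, against -0.09 over all genes. This comparison shares its Control arrays with the first comparison and its HS+LPS arrays with the second.

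In both cultures the neighbours Ccl2 and Ccl7 read on opposite sides of Control, and neither passed without the block. The 1 member lower with the block, Ccl7, is near the share of all genes that were lower (12.1%). Ccl2 was higher in both cultures, by log2 differences of 0.27 and 0.45 (fitted 0.36, SE 0.12, adjusted p = 0.218, with the block 0.0176). Ccl7 was lower in both, at -0.48 and -0.33 (fitted -0.41, SE 0.11, adjusted p = 0.157, with the block 0.0095). The signs were the same after median centring (0.35 and -0.41) and quantile normalization (0.24 and -0.42), and the difference between the 2 genes was not tested. As a share of the rise on the log2 scale, Ccl2 kept 22.1% ± 8.58 (SD, n = 2 cultures) and Ccl5 15.5% ± 1.03 (its Control signal in culture 1 being under noise), while Ccl7 stood at -25.9% ± 7.47, Ccl20 at -10.7% ± 0.00292 and Ccl9 at -10.4% ± 5.05, where a negative share means a signal under Control. Ccl4 and Ccl11 changed sign between cultures 1 and 2, at 22.2% and -11.7% and at 31.2% and -11.0%. The median over the 8 members with a rise of at least 1 in both cultures, all but Ccl8, had no settled size or sign. It was -2.57% with Ccl3, which was under the noise level in both Control and HS+LPS, and 5.25% over the 7 others. With Ccl3 it was -7.62% at a pseudocount of 16 and -6.98% after quantile normalization, where fewer members reached that rise (6 and 7).

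Ccl5 remained above Control by 1.06 and 0.84 in the 2 cultures (fitted 0.95, SE 0.48, adjusted p = 0.407, with the block 0.0243). Its Control signal in culture 1 was under noise, so the first of these rests on the pseudocount. The unblocked difference was 0.37 without Control 1, 0.48 without HS+LPS 2, 1.43 without HS+LPS 1 and 1.53 without Control 2. The second Ccl9 probe set stood at 0.04 (adjusted p = 0.972), the brighter at -0.30 (adjusted p = 0.492). The other 6 members did not pass with or without the block. Their 95% intervals with the block were -1.42 to 0.17 for Ccl3, -0.52 to 0.92 for Ccl4, -0.61 to -0.05 for Ccl8, -0.68 to 0.07 for Ccl9, -0.42 to 0.73 for Ccl11 and -0.73 to 0.10 for Ccl20. These intervals leave room for differences of either sign except for Ccl8, whose unadjusted interval was below 0 (adjusted p = 0.108 with the block). Without Control 1 the unblocked signs of Ccl4, Ccl11 and Ccl20 turned.

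**Figure D4:**
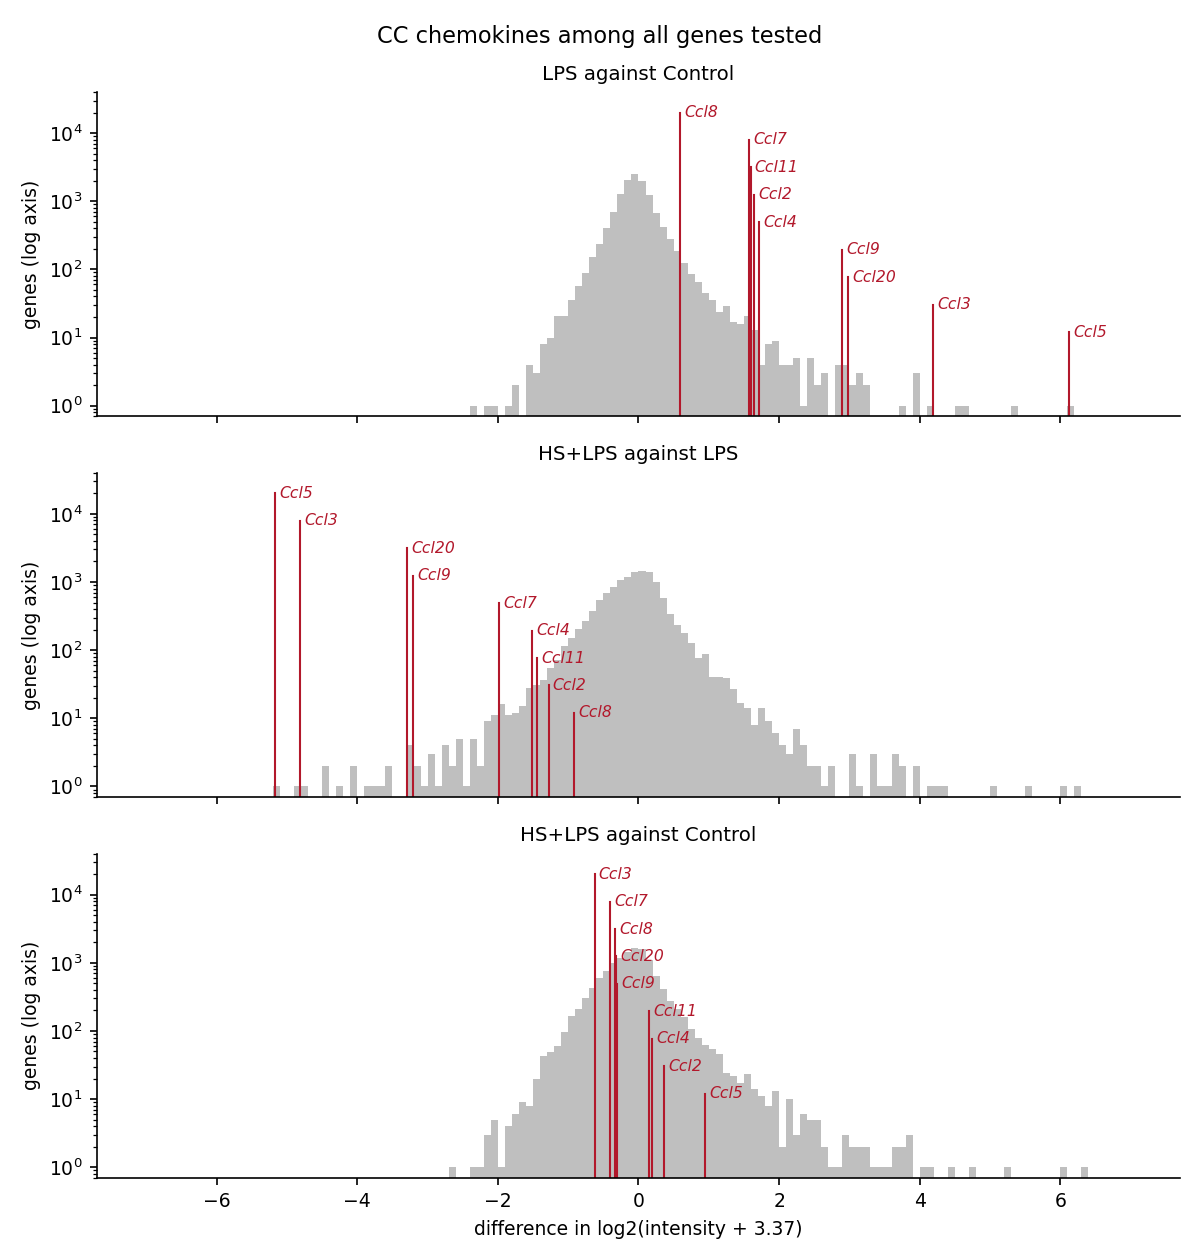
Distribution of the log2 difference over the 12918 genes tested (grey bars, log axis) with the 9 CC chemokines marked by red lines whose heights carry no value, for the 3 comparisons. The fitted differences of the members span 0.59 to 6.12 for LPS against Control, -5.17 to -0.92 for HS+LPS against LPS, and -0.62 to 0.95 for HS+LPS against Control.

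The other CC ligands that could be measured were dim, reading at most 32.2 (Ccl17 with LPS in culture 1). Of 14 other CC ligands 9 had a probe set of their own, 3 of these were above noise on all arrays (Ccl25, Ccl27a and Ccl28), and 5 were tested. The limma fit called 0 of the 5 in any comparison, also with the block. At an unadjusted p under 0.05 there was 1, Ccl17, in LPS against Control (log2 difference 1.46, adjusted p = 0.997, with the block 0.0513). The share of all genes at that threshold is not given here, so this count has no background. Ccl12, the gene between Ccl11 and Ccl8, read 9.12 and 12.9 in Control, 9.09 and 15.8 with LPS, and 7.36 and 3.97 with HS+LPS. Ccl6, between Ccl9 and Ccl3, read at most 7.32 and was above noise on 1 array. Both were picked for their place between members. Of the measured ligands outside the 9, only Ccl1 and Ccl17 read highest with LPS in both cultures. Ccl1, above noise on 3 arrays and not tested, read 1.77 and 7.13 in Control, 11.3 and 26.0 with LPS, and 6.40 and 1.18 with HS+LPS. A peak with LPS was therefore not confined to the 9 members.

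Of 16 receptors and scavengers, mostly of CC chemokines, 15 had a probe set of their own and 6 were tested. Ccrl2 and Ackr3 were listed with them, though the ligands named for these below are not CC chemokines. The leukocyte receptors that these ligands act on gave little signal: Ccr2 was above noise on 0 arrays (0.861 to 6.31), Ccr3 on 1 and Ccr1 on 2, and Ccr6 read 1.12 to 14.4. The limma fit without the block called 0 of the 6 in each comparison. At an unadjusted p under 0.05 there was 1 for LPS against Control, 2 for HS+LPS against LPS and 1 for HS+LPS against Control. They were Ccrl2, Ccrl2 with Ackr3, and Ackr3. In the last comparison 4.48% of all genes were higher at that threshold. For the other 2 the share is not given here. With the block Ackr3, a scavenger receptor of Cxcl12, rose after heat shock against LPS, 1 of the 6, where 6.32% of all genes rose. It read 403 and 457 in Control, 399 and 519 with LPS, and 602 and 819 with HS+LPS (HS+LPS against LPS log2 difference 0.62, adjusted p = 0.216, with the block 0.00247). Ccrl2, a non-signalling receptor that presents chemerin, read 3.85 and 10.5, 28.5 and 22.8, and 9.18 and 12 in the 3 groups, the pattern nearest to that of Ccl4, and did not pass (LPS against Control log2 difference 1.53, adjusted p = 0.596, with the block 0.0808).

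Of 28 tested genes of LPS signalling and NF-kB, 2 rose with LPS (Nfkbiz and Tnfaip3) and 10 with the block. After heat shock 3 fell (Nfkbie, Cd14 and Relb) and 1 rose (Nfkbiz) against LPS, and 14 fell and 1 rose with the block. Over all genes tested, 0.147% rose with LPS and 0.828% fell for HS+LPS against LPS without the block. The share that rose for HS+LPS against LPS without the block is not given here, so that count of 1 has no background. With the block 2.06% rose with LPS, and 12.6% fell and 6.32% rose for HS+LPS against LPS. The median log2 difference was 0.41 and -0.36 in these comparisons, against -0.05 over all genes in both. Nfkbiz, an atypical IkB protein, was higher still after heat shock, where the CC chemokines were lower: it read 417 and 439.5 in Control, 1239 and 1183 with LPS, and 2082 and 2235 with HS+LPS (HS+LPS against LPS log2 difference 0.83, adjusted p = 0.0303). Nfkbie, which encodes the inhibitor IkB epsilon, read 28.4 and 64.8, 470.2 and 317, and 12.5 and 24.7 (-4.21, adjusted p = 0.0235). Relb, an NF-kB subunit and the second nearest gene to Ccl2, fell by 1.15 on the log2 scale (adjusted p = 0.0494), and Cd14, the LPS co-receptor, by 1.5 (adjusted p = 0.0306). Tnfaip3, a deubiquitinase that restrains NF-kB, rose with LPS by a log2 difference of 2.24 (adjusted p = 0.0418) and fell with the block alone (-1.12, adjusted p = 0.0895, with the block 0.00193). Nfkb2, Irf1 and Irf7 fell with the block (-1.97, -1.48 and -1.36; adjusted p = 0.073, 0.0599 and 0.121, with the block 0.00109, 0.000103 and 0.00684). Against Control, HS+LPS was higher for 1 gene, Nfkbiz (2.32, adjusted p = 0.001), where 0.178% of all genes were called in either direction. With the block HS+LPS was higher for 5 and lower for 6 (5.09% and 12.1% of all genes).

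Transcripts of many chemokines carry AU-rich elements that set their stability. Of 10 tested genes whose products bind or cut inflammatory transcripts, 1 rose with LPS without and with the block, where 0.147% and 2.06% of all genes rose. This was Zc3h12a, an RNase, at 46.3 and 47.4 in Control and 411 and 364 with LPS (log2 difference 2.96, adjusted p = 0.00593). It read 322 and 365 with HS+LPS (against Control 2.79, adjusted p = 0.00188), where every CC chemokine was lower than with LPS. Against LPS limma called 0 of the 10 after heat shock and 3 at an unadjusted p under 0.05. The share of all genes at that unadjusted threshold is not given here. With the block 3 rose (Zfp36, Zfp36l2 and Elavl1) and 1 fell (Rc3h2), where 6.32% of all genes rose and 12.6% fell. A fall of 1 in 10 is near that background. Zfp36, tristetraprolin, which marks AU-rich transcripts for decay, read 122 and 149 in Control, 100.3 and 139.5 with LPS, and 226 and 372 with HS+LPS (HS+LPS against LPS log2 difference 1.27, adjusted p = 0.109, with the block 0.000376). Zfp36l2, Elavl1 and Rc3h2 differed by 0.47, 0.32 and -0.72 (adjusted p = 0.182, 0.266 and 0.346, with the block 0.0121, 0.0265 and 0.00528). Against Control limma called 1 higher, Zc3h12a, where 0.178% of all genes were called in either direction. With the block 5 were higher and 2 lower (5.09% and 12.1% of all genes). Rc3h1 was at 0.60 and Tia1 at -0.42 (adjusted p = 0.132 and 0.259, with the block 0.00859 and 0.0381).

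Of 16 tested proteases and matrix genes that cut or hold chemokines, limma called 0 in each comparison. At an unadjusted p under 0.05 there were 3 higher with LPS, 2 lower for HS+LPS against LPS and 1 higher for HS+LPS against Control. In the last comparison 4.48% of all genes were higher at that threshold. For the other 2 the share is not given here, so those counts have no background. With the block 5 rose with LPS (Mmp9, Mmp3, Mmp13, Sdc4 and Ext1); against LPS 4 fell (Mmp9, Mmp3, Mmp13 and Adam17) and 2 rose (Tnfaip6 and Gpc1) after heat shock. The shares of all genes were 2.06% for the rise with LPS, and 12.6% and 6.32% for the fall and the rise after heat shock. Mmp3, stromelysin, which trims monocyte chemoattractants, read 629 and 831 in Control, 1321 and 2159 with LPS, and 552 and 636 with HS+LPS. Its log2 difference was 1.22 for LPS against Control (adjusted p = 0.368, with the block 0.000613) and -1.51 for HS+LPS against LPS (adjusted p = 0.063, with the block 8.36e-05). Tnfaip6, a hyaluronan-binding protein that also binds chemokines, read 38.1 and 55.9, 50.6 and 107.4, and 103.7 and 256.4 in the 3 groups. It rose after heat shock with the block (HS+LPS against LPS 1.11, adjusted p = 0.356, with the block 0.00534). The collagenases Mmp13 and Mmp9 rose with the block by 0.80 and 1.89 with LPS (adjusted p = 0.615 and 0.999, with the block 0.00334 and 0.00466).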

How the data were processed

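The authors deposited 1 linear signal intensity per probe set and array; per the labels, biotinylated cRNA was hybridised to 1-colour arrays. The mean after trimming 2% at each end was 100.001 on every array, so a change in total mRNA cannot be seen. The software was not given in the sources used here. The 45101 probe sets were named from the platform annotation, and array controls were left out. Signals were turned into log2(intensity + 3.37), the 25th percentile of all values being 3.37; this understates folds of dim genes. Only probe sets whose mean log2 signal reached the 40th percentile were kept, and the brightest with 1 symbol stood for its gene. Limma 3.58.1 in R 4.3.3 (lmFit, eBayes with an intensity trend) fitted the 3 groups together, with Benjamini-Hochberg adjusted p under 0.05 over 12918 genes as the threshold, and was tested on simulated data. The culture was left out of this fit, since the protocols name no block, and added as an alternative. The numbers pair the arrays because, per the labels, a number stands for 1 embryo's culture. Deviations of the arrays from their group means correlated at 0.54 to 0.62. The fit without the block, and the values with 1 array left out, ignore this pairing. "At least" folds set the bright group's mean log2 intensity against the noise level. Named were all members, genes of 5 other lists called without or with the block (at most 8 a list, largest difference first) and the 2 genes nearest to each member; others were chosen after their values were seen. Members, lists and rules were chosen with earlier results of these data known. P-values rest on 2 cultures per group.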

Additional observations from a re-analysis of the deposited data

How the results depend on the processing

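Depth is unknown for array signals, and 2 cultures per group limit the precision. With the replicate block, which uses the pairing by embryo, 9, 9 and 3 members were called in LPS against Control, HS+LPS against LPS and HS+LPS against Control, and 359, 2443 and 2219 of all genes; of the 10 member probe sets 9, 10 and 3 were called, Ccl8 missing the threshold in the first. With the replicate block and quantile normalization, 8, 9 and 3 members and 349, 2117 and 1811 genes were called. For HS+LPS against Control, genes called went from 23 to 58 with a pseudocount of 16, 37 with a filter at the 60th percentile and 59 after median centring (51 higher, 8 lower, against 22 and 1). Without the intensity trend 5, 84 and 13 genes and 2 members (LPS against Control) were called. With only the groups compared, 0, 76 and 14 genes and 0 members (LPS against Control) were called; fewer arrays enter that fit. Leaving out 1 array gave 0 to 4, 8 to 76 and 8 to 14 genes, and 0 to 1, 0 to 5 and 0 members. Rc3h2 in HS+LPS against Control turned to 0.12 with the mean of its probe sets. Leaving out 1 array unbalances the cultures. Ccl11 then ranged from -0.15 (without LPS 2) to 3.34 (without LPS 1) in LPS against Control, was -0.11 without Control 1, and ranged from -3.18 (without LPS 1) to 0.30 (without LPS 2) in HS+LPS against LPS. In HS+LPS against Control, Ccl11 ranged from -1.55 to 1.86, Ccl4 from -0.33 to 0.73 and Ccl20 from -1.06 to 0.42, the ends being without Control 1 and Control 2; without HS+LPS 2 they were -1.22, -0.01 and 0.38. The cause of the other changes was not tested.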
